A study of Mus musculus with 56 samples.

Results

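The STAT transcription factors and the Janus kinases were followed in mouse blood after injection of 90Sr. The genes were chosen by name: Stat2, Stat3, Stat4, Stat5a, Stat5b, Stat6, Jak1, Jak2 and Jak3, which make 9 of the 30199 genes named on the array, with every probe of each gene (14 of 39429 probes). All 9 had a probe that passed the detection filter, as did 18802 genes in all. Blood RNA came from 56 C57BL/6 mice, 1 array each. Of these, 28 received 200 kBq of 90Sr as the chloride salt through the tail vein and 28 were controls, which the methods describe as injected with vehicle. The mice were 10 to 12 weeks old on arrival and were quarantined for 14 days. Blood was taken from 4 mice per group at day 4 and from 6 per group at each later time (day 7, day 9, day 25, day 30), with separate control mice at each day. Each mouse was sampled once, so the days are different animals. Whole blood mixes all circulating cells, so fewer cells of a type and less RNA per cell cannot be told apart.

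Janus kinases are bound to the inner parts of cytokine and interferon receptors. When a ligand brings receptor chains together, the kinases phosphorylate each other and the receptor, and STAT proteins that dock there are phosphorylated, pair up and enter the nucleus to act on target genes. In blood cells this route carries the signals of interferons, interleukins and the growth factors of blood formation, and it is held back by SOCS and PIAS proteins and by phosphatases.

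The probes that stand for the STAT genes below are shown by their leading 30 bases, with the position of the whole probe on mm9, because the results of Stat3, Stat5b and Stat6 differ with the probe that is read. Stat2 was read at chr10:127729834-127729893 on the plus strand, from base 4330 of its transcript. Stat3 had 2 probes on the minus strand, probe 1 at chr11:100749598-100749657 and probe 2 at chr11:100759946-100760005, and Stat4 was read at chr1:52163802-52163861 on the plus strand. Stat5a was read at chr11:100746373-100746432 on the plus strand, from base 3777. Stat5b had 2 probes on the minus strand, probe 1 at chr11:100642045-100642104 and probe 2 at chr11:100642187-100642246. Stat6 had 3 probes on the plus strand, probe 1 from transcript base 3450 (chr10:127097689-127097748), probe 2 from base 2354 (chr10:127095694-127095753) and probe 3 from base 300 (chr10:127083983-127084042). Probe 1 of a gene is the one of highest mean, and it stands for the gene unless another is named.
Stat2: ctgaatagttagaaagaactgttgtcctga
Stat3 probe 1: cactctgtgagctgataccccaggctggga
Stat3 probe 2: tttaacattctgggcacgaacacaaaagtg
Stat4: agaaggaagcagatgaaactggagagtgtt
Stat5a: ctctctgaaggaagcagagggatgcttttt
Stat5b probe 1: tgaggcagccacaaaattgtgtattttatg
Stat5b probe 2: gtggaaggagatttgaagtggctatctcct
Stat6 probe 1: tctgaaaggctgagacattgtataagacag
Stat6 probe 2: acagtccatccactcatttcagagcctaga
Stat6 probe 3: ctaatttccaagatgtccccagaaaaactg

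Values are log2 of the background-corrected signal minus the median of the array's non-control spots. The number of spots well above background was 17809 to 24698 on control arrays and 14389 to 22524 on 90Sr arrays. The array median itself was lower in the 90Sr mice by 0.59 to 0.94 on the log2 scale, and each change below is a change relative to it. One control mouse of day 30 (replicate 4) was the lowest of its group in all 9 genes, and without it 5 of the 9 genes were called lower at that day in place of 2. Slides held 4 arrays, 14 slides in all. The day 4 controls shared a slide and the day 4 90Sr mice another, so slide and group cannot be told apart at that day. From day 7 on, 1 slide of each day held 2 mice of each group.

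Of the 9 genes, 5 (Stat2, Stat5a, Stat6, Stat4 and Jak3) were down regulated at 1 or more days, and none was up regulated at any day. Among all genes tested, 25.9% were called lower and 22.4% higher at 1 or more days. The threshold for a call was a limma p under 0.001 before adjustment together with a change of at least 2-fold. At day 4, 3 of the 9 genes were called lower, where 17.4% of all genes tested were. At day 7, 5 of 9 were called lower, against 12% of all genes. The day 9 count was 1 of 9, against 13.7%. The day 25 count was 4 of 9, against 19.8%, and the day 30 count 2 of 9, against 16.1%. None of the 9 was called higher at any day, where 2.14%, 2.59%, 4.42%, 5.7% and 15.5% of all genes were in order of day, and none was higher at an unadjusted limma p under 0.05. The median change of the 9 genes was -0.80, -1.03, -0.85, -1.02 and -0.88 in order of day, and the median of all genes tested was -0.01, 0.00, -0.08, -0.10 and 0.12. With each array scaled to its 75th percentile, which raised the median of all genes to between 0.31 and 0.47, Stat2 and Stat5a were the only 2 of the 9 genes called at any day. Over all 18802 genes, 654 to 2272 were then called lower at each day.

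**Figure D1:**
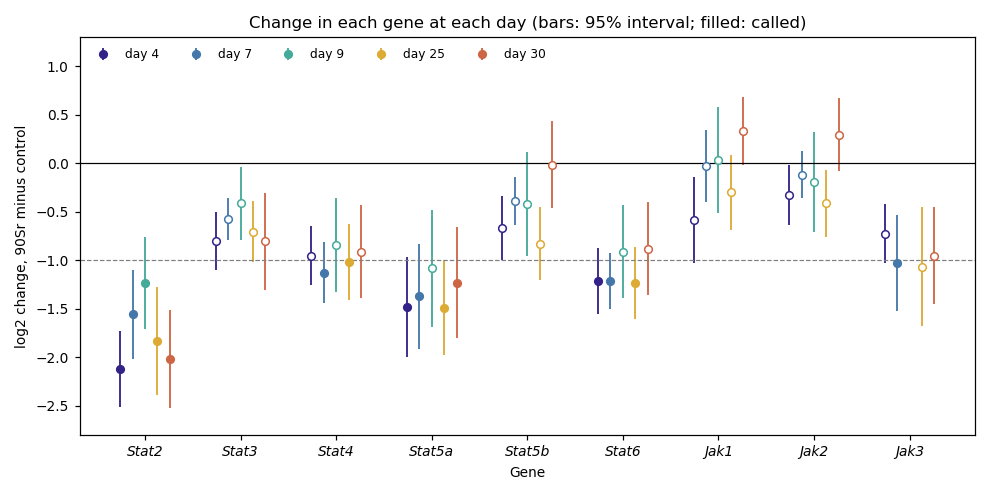
Log2 change from control to 90Sr mice for each gene (horizontal axis) at each day, with the 95% interval from limma. Filled points passed the threshold for a call, the dashed line marks a 2-fold decrease, and Jak3 has no point at day 9, where no 90Sr array was well above background; Stat2 was filled at all 5 days and Jak1 and Jak2 lay on both sides of 0.

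Stat2, which joins Irf9 in the factor that answers type I interferons, fell at every day. At day 4 the control mice were at 4.07, 3.86, 4.55 and 3.98, and the 90Sr mice at 2.11, 1.89, 2.18 and 1.80. Every 90Sr mouse lay below every control mouse of its day, in 28 of 28 mice over the 5 days. The change was -2.12 ± 0.17 at day 4 (SE, n = 4 per group). On the later days (n = 6 per group) it was -1.56 ± 0.21, -1.23 ± 0.22, -1.84 ± 0.26 and -2.02 ± 0.24 in order of day. Its adjusted p from limma was highest at day 9, at 0.000543. At day 30 the controls ran from 3.31 to 4.33 with a median of 4.05, and the 90Sr mice from 1.38 to 2.62 with a median of 1.86. Of all genes tested, 6.31% were called lower at all 5 days, as Stat2 was. The share of all genes whose groups lay apart in the same way is not given, here or for the genes below.

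Stat2 also fell on the slides that held 2 mice of each group. There the difference was -1.91, -1.53, -1.04 and -1.45 from day 7 to day 30. With slide as a fixed block, which rests on these mice, none of the calls of days 25 and 30 passed (Stat2 and Stat5a at both days, Stat4 and Stat6 at day 25), nor did that of Jak3 at day 7. All 6 STAT genes and Jak3 were below 0 on these slides at all 4 days.

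Stat5a and Stat5b are a pair of closely related factors that act below the receptors for IL-2, IL-7, erythropoietin and other growth factors, and their probes did not change alike. Stat5a fell at 4 of 5 days. At day 4 its controls were at 4.03, 3.84, 4.27 and 3.63 and its 90Sr mice at 2.74, 2.30, 2.88 and 1.93, with no overlap. On the days called, 4, 7, 25 and 30, the change was -1.48 ± 0.23, -1.37 ± 0.25, -1.49 ± 0.23 and -1.23 ± 0.27 (SE). The day 30 call was lost without control replicate 1, 2, 3 or 5 or 90Sr replicate 5. The day 9 change was -1.09 ± 0.29 and not called, with an adjusted limma p of 0.00635. At day 30 the groups overlapped, with controls from 2.68 to 4.46 (median 4.00) and 90Sr mice from 2.37 to 2.89 (median 2.54), and 4 of 6 90Sr mice lay below every control.

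Stat5b probe 1 was not called at any day. Its change was -0.67 ± 0.15, -0.39 ± 0.11, -0.42 ± 0.25, -0.83 ± 0.18 and -0.01 ± 0.21 (SE) in order of day. At day 9 the controls ran from 4.72 to 5.59 (median 5.16) and the 90Sr mice from 4.02 to 5.30 (median 4.95), and the groups overlapped then and at day 30. Stat5b probe 2, read from transcript base 5053 where probe 1 is read from 5195, gave -0.70 ± 0.24 at day 30, and -0.73, -0.65, -0.45 and -0.95 at the earlier days. A test of the difference between the probes was not made.

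The difference between Stat5a and Stat5b within a mouse is free of any constant by which an array is scaled, but not of the background correction. It shifted from control to 90Sr mice by -0.81, -0.99, -0.66, -0.66 and -1.22 in order of day. The adjusted p was 0.0485, 0.0132, 0.00847, 0.0172 and 0.00847 (two-sided exact permutation test, Benjamini-Hochberg over 180 comparisons of 36 pairs at 5 days). With Stat5b read from probe 2, a choice made after seeing the data, the shift was -0.75, -0.72, -0.63, -0.54 and -0.53, and it passed at all 5 days with an adjusted p of at most 0.0485 (exact permutation). In this test the smallest p that 4 against 4 mice allow is 0.0286, and 6 against 6 allow 0.00216. Every pair that passed at day 4 was at that smallest p, and with any 1 of the day 4 controls left out 0 pairs passed there. With normexp on the array's median background, added after seeing the data, Stat5a was at -1.27, -1.06, -0.90, -1.25 and -1.11 by day. Stat5b was then at -1.13, -0.75, -1.03, -1.24 and -0.52, so it fell further than Stat5a at day 9 and about as far at day 25.

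**Figure D2:**
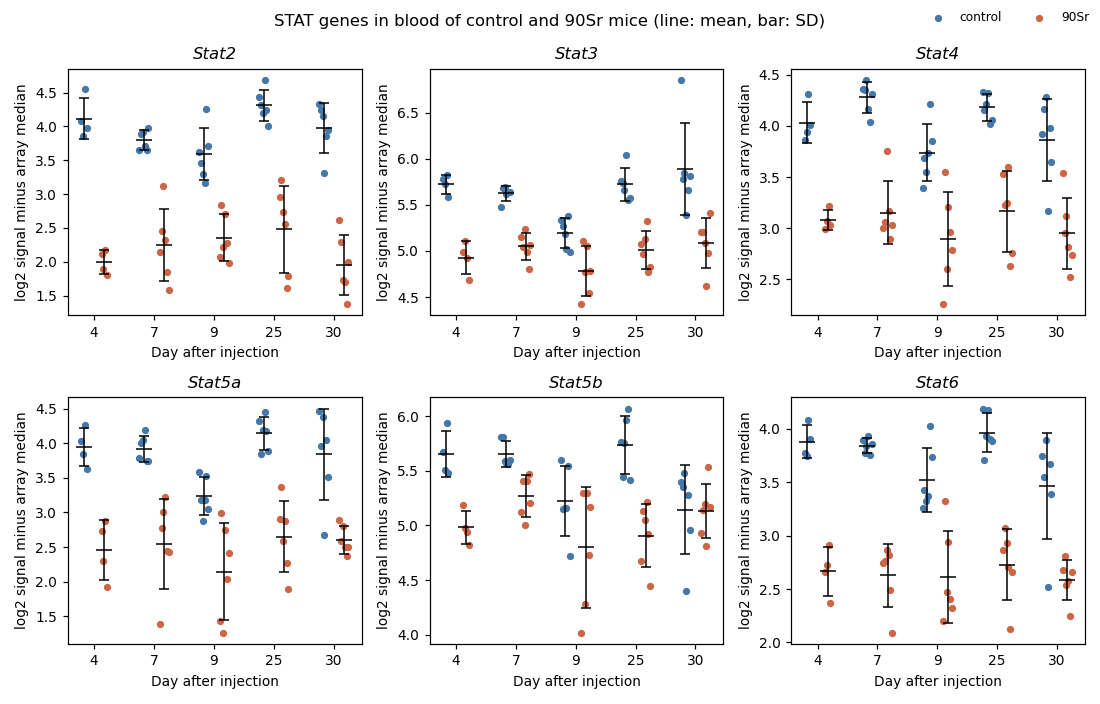
Log2 signal minus the array median (vertical axis, separate range in each panel) of 6 STAT genes in every mouse by day, with controls in blue and 90Sr mice in orange; lines and bars are the mean and SD. The 2 groups of Stat2 are apart at all 5 days, while those of Stat5b overlap at days 9 and 30.

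Stat6, which carries the signals of IL-4 and IL-13, was called lower at 3 days. At day 4 the controls were at 3.78, 3.74, 4.08 and 3.91 and the 90Sr mice at 2.66, 2.72, 2.91 and 2.37. On days 4, 7 and 25 the change was -1.21 ± 0.15, -1.22 ± 0.13 and -1.24 ± 0.17 (SE), with no overlap of the groups. It was -0.91 ± 0.22 on day 9 and -0.88 ± 0.22 on day 30, which are less than 2-fold. At day 30, 1 control mouse (replicate 4) was at 2.52, among the 90Sr mice, and without it the change was -1.07 and called.

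Stat6 probe 2 gave -0.82, -1.38, -0.32, -0.88 and -0.13 in order of day. Probe 3, near the start of the transcript, was well above background on 15 of 56 arrays and on none of the 8 arrays of day 4, so it gives no change there. At day 7 it was well above background on no 90Sr array. At days 9, 25 and 30 the measured values of probe 3 went the other way, at 0.99 ± 0.35, 0.59 ± 0.52 and 0.32 ± 0.46 (SE). They rest on dim signals: of 6 arrays per group, 1 control and 2 90Sr arrays were well above background at day 9. These counts were 3 and 2 at day 25, and 5 and 1 at day 30. With the mean of all 3 probes Stat6 was not called at any day, at -0.40, -0.66 and -0.51 on days 4, 7 and 25. With the mean of probes 1 and 2 alone, chosen after seeing the data, it was called on the same 3 days, at -1.02, -1.30 and -1.06.

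**Figure D3:**
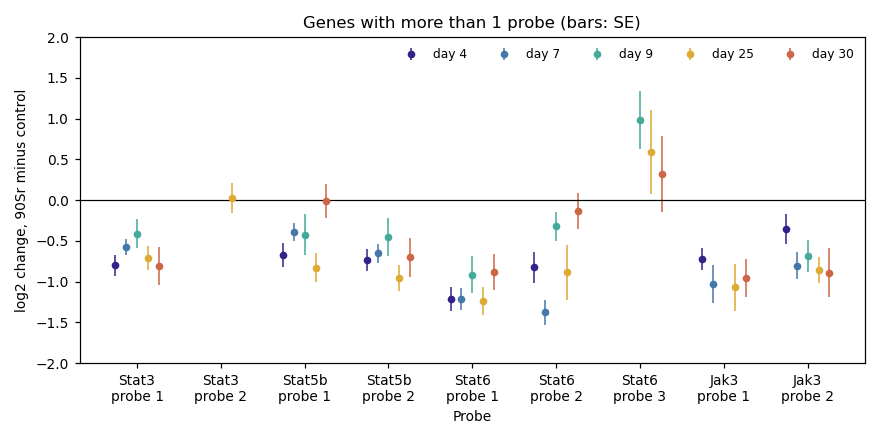
Log2 change from control to 90Sr mice (vertical axis, with SE) at each day for the 4 genes that had more than 1 probe; no point is drawn where a group had no array well above background. Stat6 probe 1 lay below 0 at all 5 days, and Stat5b probe 1 was at -0.01 at day 30 where probe 2 was at -0.70.

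Stat4, which acts below the IL-12 receptor in T and NK cells, was called lower at days 7 and 25. At day 7 the controls ran from 4.04 to 4.45 (median 4.33) and the 90Sr mice from 2.89 to 3.75 (median 3.04), with a change of -1.13 ± 0.15 (SE). At day 25 the change was -1.02 ± 0.18. This call was lost without control replicate 1 or 4 or 90Sr replicate 5 or 6 of that day, at -0.99 to -0.91. On days 4, 9 and 30 the change was -0.95, -0.85 and -0.91, less than 2-fold, with adjusted limma p of 0.000482, 0.00726 and 0.00271.

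Stat3, which acts below the IL-6 and IL-10 receptors, changed by less than 2-fold at each day. The change was -0.80 ± 0.13, -0.58 ± 0.10, -0.41 ± 0.18, -0.71 ± 0.15 and -0.81 ± 0.23 (SE) in order of day, and 25 of 28 90Sr mice lay below every control of their day. The adjusted limma p was under 0.05 at each day but day 9, where it was 0.0717. Probe 2 of Stat3 was well above background on 18 of 56 arrays, and on those of 90Sr mice only in 1 at day 25, when it gave 0.03 ± 0.18; its measured values at the other days were -0.52, -0.72, -0.45 and -0.53. Between Stat2 and Stat3 the within-mouse difference shifted by -0.82 to -1.32, with an adjusted p of at most 0.0485 at the 5 days (two-sided exact permutation test). The size of this difference depended on the background correction. With normexp on the array's median background, added after seeing the data, Stat2 was at -1.49, -1.10, -1.12, -1.52 and -1.47 by day. Stat3 was then at -1.20, -0.90, -1.02, -1.13 and -1.23.

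Among the kinases, Jak3 fell in the main scaling while Jak1 and Jak2 were not called at any day. Jak3 works with the common gamma chain of the IL-2, IL-7 and IL-15 receptors and is found mainly in blood cells. Its change was -0.72 ± 0.13, -1.03 ± 0.23, -1.07 ± 0.29 and -0.95 ± 0.23 (SE) at days 4, 7, 25 and 30, and it was called at day 7. There the controls ran from 1.73 to 2.20 (median 2.01) and the 90Sr mice from 0.36 to 1.95 (median 0.86), with 5 of 6 90Sr mice below every control. The call had an unadjusted p of 0.000622 and was lost when any of 9 of the 12 mice was left out. The Jak3 signal was dim: it was well above background on every control array and on 4 of 4, 2 of 6, 0 of 6, 3 of 6 and 2 of 6 arrays of the 90Sr mice in order of day. At day 9 it was at least 1.68-fold lower in the 90Sr mice, the bound that the lowest signal well above background allows (limma, adjusted p = 0.000789). Probe 2 of Jak3, whose accessions in the array file include a transcript of a neighboring gene, gave -0.35, -0.80, -0.69, -0.85 and -0.89.

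Jak1 serves the receptors of interferons and many interleukins, and Jak2 those of erythropoietin, thrombopoietin and growth hormone. For Jak1 the change was -0.58 ± 0.20, -0.03 ± 0.17, 0.04 ± 0.26, -0.30 ± 0.18 and 0.33 ± 0.17 (SE) in order of day. At day 4 its controls were at 7.73, 7.63, 7.92 and 7.39 and its 90Sr mice at 7.49, 7.10, 6.63 and 7.13, with an adjusted limma p of 0.032. At day 30 the controls ran from 6.90 to 7.51 (median 7.21) and the 90Sr mice from 7.32 to 7.92 (median 7.55), with 4 of 6 90Sr mice above every control and an adjusted limma p of 0.0896. For Jak2 the change was -0.33 ± 0.14, -0.12 ± 0.11, -0.19 ± 0.24, -0.41 ± 0.16 and 0.30 ± 0.18 (SE). The sign of these small changes depended on the scaling: with the 75th percentile, Jak2 was above 0 at all 5 days, from 0.07 to 0.48.

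**Figure D4:**
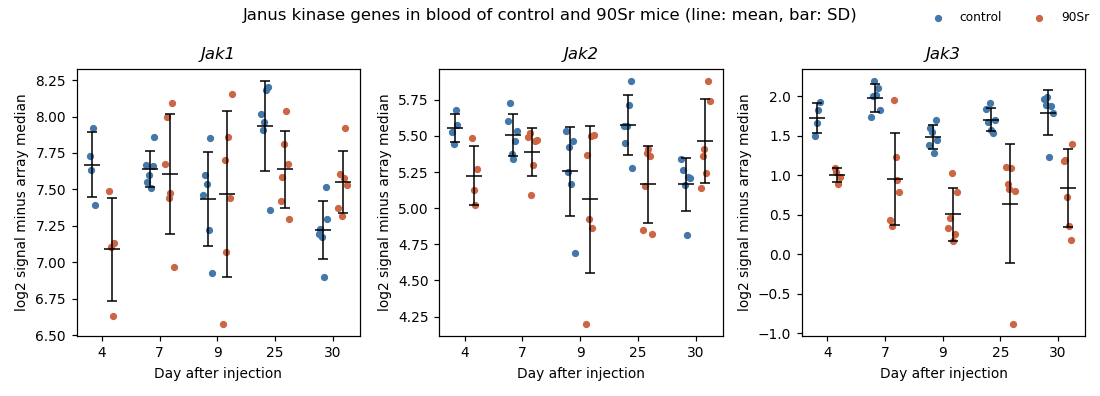
Log2 signal minus the array median (vertical axis, separate range in each panel) of 3 Janus kinase genes in every mouse by day, with controls in blue and 90Sr mice in orange; lines and bars are the mean and SD. Jak3 is lower in the 90Sr mice at each day, with a single mouse at -0.88 at day 25, while Jak1 and Jak2 overlap at each day.

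Jak1 and Jak3 changed to different extents within mice at days 7, 9, 25 and 30. The Jak1 minus Jak3 difference rose by 0.77 to 1.29 at these days, the least at day 25 and the most at day 30 (adjusted p of 0.0354, 0.0172, 0.0485 and 0.00847 in order of day, two-sided exact permutation test), and by 0.14 at day 4 (adjusted p = 0.607, exact). The day 9 value rests on Jak3 signals that were not well above background in any 90Sr mouse. This contrast depended on the background correction. With normexp on the array's median background, added after seeing the data, Jak1 fell further than Jak3 at days 4, 9 and 25. Jak1 was then at -1.15, -0.73 and -0.84 and Jak3 at -0.36, -0.42 and -0.47. At days 7 and 30 Jak1 was at -0.47 and -0.20 and Jak3 at -0.44 and -0.48. For Jak1 and Jak2 the difference shifted by -0.25 to 0.23 and did not pass at any day. In all, 18, 22, 19, 23 and 24 of 36 pairs passed in order of day. Stat2 fell further than Stat3, Stat4, Stat5b, Jak1 and Jak2 at all 5 days in this test, and the pairs of Jak3 with Stat4, Stat5a and Stat6 did not pass at any day.

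**Figure D5:**
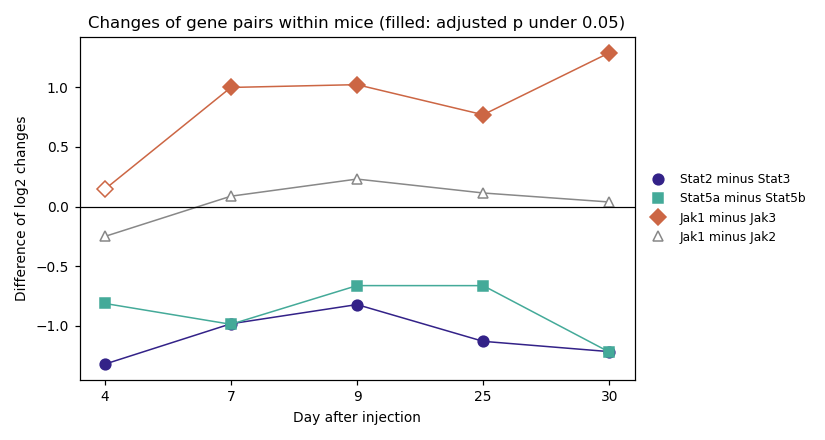
Difference between the log2 changes of 2 genes in the same mice (vertical axis) at each day for 4 pairs. Filled symbols passed an adjusted p of 0.05 in the exact permutation test; Stat5a minus Stat5b was filled at all 5 days and Jak1 minus Jak2 at none.

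The effect of 90Sr on the 9 genes was not shown to differ between days. In 1 limma fit of all 56 arrays, 0 of the 9 passed the F test of that difference at an adjusted p of 0.05, where 22.8% of all genes did. At an unadjusted p under 0.05, 3 of the 9 passed it. The lowest adjusted p were 0.11 for Jak2, 0.111 for Jak1 and 0.112 for Stat5b. Without replicate 1 of the day 9 90Sr mice these 3 passed. Control mice of different days were also compared. Among the members, 5 of 9 differed between the control days at an adjusted limma p of 0.05 (Stat3, Stat5a, Stat5b, Stat6 and Jak1), where 56.3% of all genes did. Each day lay on its own slides, and with slide as a random block 1 of these, Stat3, passed (limma, adjusted p = 0.0304). The control mean of Stat5a, for example, ran from 3.23 at day 9 to 4.14 at day 25.

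Markers of blood cell types were read beside these changes. Of 14 B cell genes, 12 were called lower at day 4, beside 17.4% of all genes. The log2 of the summed signal of the B cell genes ran from 10.39 to 10.86 in the day 4 controls and from 8.04 to 8.80 in the day 4 90Sr mice, with no overlap at any of the 5 days. The median change of the B cell genes was between -2.39 and -1.75. The 16 T cell genes had medians between -0.80 and -0.55, with 1 to 3 called lower at each day beside 12% to 19.8% of all genes. The 9 monocyte genes had medians between -1.04 and -0.64, with 3 to 5 called lower beside the same shares. The log2 of the summed signal of the monocyte genes overlapped at each day, with medians of 9.67 in controls and 9.59 in 90Sr mice at day 4 and of 9.89 and 10.15 at day 7. That of the T cell genes overlapped at each day but day 9, that of the NK cell genes at each day, and that of the neutrophil genes at each day but day 4. The 10 NK cell genes had medians between -0.91 and -0.17, and the 11 neutrophil genes between -0.84 and -0.22. All 10 erythroid genes lay above 0 at each day, with medians between 0.58 and 1.12 and 6 of 10 called higher at day 9, beside 4.42% of all genes. The log2 of the summed signal of the erythroid genes ran from 16.37 to 16.61 in the day 4 controls and from 16.92 to 17.27 in the day 4 90Sr mice, also with no overlap at any of the 5 days. That list includes globin genes, whose transcripts were reduced before labeling, and their part in the sum was not tested. Among these lists Cd79b and Fcrla fell most of the B cell genes, with means over the 5 days of -2.47 and -2.51. Pax5 and Cd22 of that list were at 0.17 and -0.28 and not called. Ccr2 and Cx3cr1 fell most of the monocyte genes, with -2.50 and -2.14, while Cd14 and Csf1r of that list were at 0.70 and 0.13 and not called. These genes were named after their values were seen. The part of these cell types in the changes of the STAT and JAK genes was not tested.

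Receptors above the kinases fell more often than they rose. Of 28 cytokine receptor genes tested, 12 were called lower and 2 higher at 1 or more days, where 25.9% and 22.4% of all genes were. Il5ra, the IL-5 receptor chain, was called lower on all of the 5 days, from -1.70 to -1.03, and Ifngr2, a chain of the interferon gamma receptor, at 4 days, from -1.69 to -1.25. Il12rb1, a chain of the IL-12 receptor, was called higher at day 4, at 1.19, and Il15ra at day 30, at 1.40. Of 26 cytokine ligands, 12 passed the detection filter, and 1 was called lower and 5 higher. Il9 was called at day 9, at 1.42, and Il2 at 1 day, with changes from 0.04 to 1.69, and Ebi3, a subunit of IL-27 and IL-35, was called lower at 3 days.

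Of 17 inhibitors of the route, 9 were called lower and 0 higher at 1 or more days, beside 25.9% and 22.4% of all genes. Ptpn6, the phosphatase SHP-1, was called at all 5 days, from -2.02 to -1.52, and Ptpn2, a phosphatase that acts on Janus kinases and STATs, at 4 days, from -1.48 to -1.03. Of 10 adaptors and partners, 6 were called lower and 1 higher, beside the same shares of all genes. Irf9, the partner of Stat2, was called lower at all 5 days, from -1.44 to -1.02, and the coactivator Ep300 at 2 days, while Stam2 was called higher at day 30, at 1.14.

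Of 22 genes known as STAT targets, 7 were called lower and 2 higher at 1 or more days, beside 25.9% and 22.4% of all genes. Fcer2a, the low affinity IgE receptor, which also stands in the B cell list, was at -2.45 to -1.97. Bcl6, a transcriptional repressor that acts in germinal center B cells, was at -2.07 to -1.14, and both were called at all 5 days. Bcl2l1, which encodes Bcl-xL, was called higher at days 9 and 30, at 1.05 and 1.17, and Pim1, a kinase, at day 30, at 1.29. With the 75th percentile scaling 4 targets were called lower and 4 higher, 8 receptors lower and 5 higher, and 4 inhibitors lower and 1 higher. Of the adaptors and partners 2 were then called lower and 1 higher, so the counts depended on the scaling. Over all 18802 genes, 654 to 2272 were called lower and 2045 to 4039 higher at each day with it. The share of all genes called at 1 or more days is not given for this scaling, so no excess is read from these counts.

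Once the mean of each group was taken away, the genes whose signal followed each member most closely over the 56 arrays differed between members. Stat2 went most closely with Trim12a, Mical1 and Kri1 (Pearson r of 0.92, 0.91 and 0.91). Stat5b followed Rasa3, Fbxw11 and Ptpra (0.94, 0.93 and 0.92). Stat3 was closest to Ltb4r1 at 0.86, Stat4 to Gimap1 at 0.87, Stat5a to Fam53a at 0.87, Stat6 to Cpsf3 at 0.86 and Jak1 to Rpl23 at 0.89. Jak3 had the loosest match, with Akna at 0.71. Among the members, Stat5b and Jak2 were closest at 0.84. These values share the centering of each array and describe it along with the genes.

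The promoter of Stat2 is shown because it holds a motif of the interferon type. The 250 bases before its start in RefSeq (GRCm38.p6, chr10:128270248-128270497, plus strand) contain, on the minus strand, the sequence GAAA followed after any 2 bases by another GAAA, which appears in capitals as its reverse complement, and 3.44% of 32851 promoter windows of 300 bases hold this motif, the core of the interferon-stimulated response element, on either strand. Of the 9 genes, Stat2 and the second start of Stat4 had it. TTCNNNGAA, the core bound by STAT pairs, was found in none of the 12 windows of the 9 genes and in 8.3% of all windows. A match of letters is a description and not a bound site.
Stat2 promoter: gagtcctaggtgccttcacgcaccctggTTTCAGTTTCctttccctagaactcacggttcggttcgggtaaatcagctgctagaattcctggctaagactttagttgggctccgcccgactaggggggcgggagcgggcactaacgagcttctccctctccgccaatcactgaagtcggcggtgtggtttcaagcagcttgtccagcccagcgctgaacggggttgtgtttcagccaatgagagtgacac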

How the data were processed

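The authors deposited, for each of 56 one-color arrays, the intensity of every spot on a linear scale, after the background correction of Feature Extraction (version 11.5.1.1 in the file headers, 10.7 in the submitters' processing notes), with flags for non-uniform, dim and saturated spots. They also deposited a table of processed log2 values, used here as an alternative; Jak1 and Jak2 were not analysed with it, and it holds other probes for Stat3 and Stat5b. Probe positions are those of the files, on mm9. Globin transcripts were reduced before labeling.

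Log2 intensities of the 43020 non-control spots (of 44397) were centered on the array median and averaged per probe. A probe was dropped where its spots were not uniform, or no brighter than background, on at least 25% of arrays, leaving 23324 probes of 18802 genes, and a gene was read from its probe of highest mean. The methods' filter on variation was run as an alternative. A separate model per day was run under limma 3.58.1 in R 4.3.3 (lmFit and eBayes), with statmod 1.5.0 for random blocks, and adjusted p (Benjamini-Hochberg) are over all genes tested. Calls used p under 0.001 with a 2-fold change. Pairs of genes were compared by two-sided exact permutation. Steps were tested on simulated data. The number of arrays limits the precision, and p-values measure the spread between mice of 1 group.

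The members and gene lists were chosen with earlier results of these data known. Genes named are all members with every probe, up to 2 lowest and 2 highest genes of each list by mean change among those called, and up to 3 genes most like each member; those of Jak2 are not reported here. The alternatives were other scalings, normexp background correction, other filters, the authors' values, blocks for slide, scan day and replicate number, a single model of all 10 groups and the omission of each array. Normexp with the array's median background, Stat5b read from probe 2 and Stat6 from probes 1 and 2 were added after seeing the data.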

Additional observations from a re-analysis of the deposited data

Results flagged for a closer look

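In 8 of 90 groups of a member's values, 1 mouse stood apart from the rest of its group by Dixon's test at the 95% level; chance flags about 1 in 20 such groups. Control replicate 4 of day 30 was the lowest of its group in all 9 genes, and stood apart by this test in 3 of them, at 2.52 for Stat6, 4.82 for Jak2 and 1.23 for Jak3. Control replicate 1 of day 30 was high for Stat3, at 6.86 with the next mouse at 5.84. The other 4 were Stat3 in control replicate 1 of day 7, at 5.48, Stat4 in 90Sr replicate 3 of day 7, at 3.75, Jak1 in control replicate 6 of day 25, at 7.36, and Jak3 in 90Sr replicate 5 of day 25, at -0.88 with the next mouse at 0.80.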

How the results depend on the processing

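With the 75th percentile scaling, 1, 0 and 2 of the 9 genes were called lower at days 7, 9 and 25, and 1 gene (Stat2) passed the test between days. Of all 18802 genes, 654, 886 and 1027 were then called lower at days 7, 9 and 25. Jak2 was then at 0.15, 0.23, 0.20 and 0.069 at days 4, 7, 9 and 25, Jak1 at 0.32 and 0.18 at days 7 and 25, and Stat5b at 0.17 at day 30. Relative to the median of all genes these changes were as in the main scaling. This had to be nearly so, since both scalings subtract 1 constant from the log2 values of an array. Of all calls, 89%, 82.3%, 75.6%, 77.7% and 50.9% were lower in order of day in the main scaling. The shares were 29.8%, 24.2%, 27.9%, 20.3% and 37.1% with the 75th percentile, or 60.5%, 48.8%, 60%, 41.3% and 52% with quantile normalization. Quantile normalization called 1, 1, 0 and 1 lower at days 4, 7, 9 and 25, with 1 gene (Stat3) in the test between days, 0, 9 and 14 pairs at days 4, 9 and 25, Jak2 at 0.025 at day 7, and Jak1 at -0.13 and -0.058 at days 9 and 30. Over all 18802 genes it called 1546, 874, 1395 and 1374 lower at days 4, 7, 9 and 25.

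Normexp with local background called 0 of 9 at each of the 5 days and passed 0, 0, 1 and 1 pairs at days 4, 7, 9 and 25. Over all 18802 genes it called 0 to 79 lower at each day. Jak1 was at -0.11 at day 9, and Stat3, Stat5b, Jak1 and Jak2 at 0.27, 0.18, 0.74 and 0.52 at day 25, with Stat3 at 0.021 and Stat5b at 0.68 at day 30. The median amount that this fit added to the non-control spots of an array was as high as 1346 units. With the array's median background, an alternative chosen after seeing the data, 7 and 5 genes were called lower at days 4 and 9, and 0, 14, 5 and 15 pairs passed at days 4, 7, 9 and 25, with Jak1 at -0.73 and -0.20 at days 9 and 30 and Jak2 at -0.24 at day 30. Of all 18802 genes, 2303 and 2436 were then called lower at days 4 and 9.

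An adjusted p under 0.05 alone gave 8, 5, 8 and 6 lower genes at days 4, 9, 25 and 30. The mean of a gene's probes gave 3 at day 7, and the authors' values 4 and 5 at days 9 and 30, with Stat3 at 0.073 at day 25. The filter on variation read another probe of Stat3, at 0.029 at day 25. The stricter detection filter, slide as a random block and 1 fit of all groups each gave 2 at day 9. Slide as a fixed block, which rests on 2 against 2 mice, gave 0 at days 25 and 30 and Jak1 at -0.25 at day 9, and the random block gave Jak1 at -0.0037 there and 1 gene that differed between control days. Scan day as a block gave 1 at day 30. The cause of these shifts was not tested. With the replicate number as a block the counts were 3, 5, 1, 4 and 2. Deviations of same-numbered mice correlated at -0.28 to 0.33, with 8 of 28 pairs over 0.1 and 7 of 28 90Sr arrays closest to their own number, so the numbers do not pair the mice.

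With each array left out in turn, 3 to 4, 4 to 5, 1 to 3, 3 to 4 and 1 to 5 genes were called lower in order of day. Day 9 gave 2 or 3 without control replicate 1 or 4 or 90Sr replicate 2, 3, 4 or 6. Day 30 gave 5 without control replicate 4, 4 without 90Sr replicate 1, 3 without 90Sr replicate 6, and 1 without control replicate 1, 2, 3 or 5 or 90Sr replicate 5, when Stat5a was lost. The test between days passed 0 to 3 genes. The test between control days passed 3 to 7, with 3 without control replicate 2, 3 or 4 of day 9 or 4 of day 25. Pairs passed ran from 0 to 21 at day 4, with 0 without any 1 of the 4 control mice, and from 14 to 27 later. Jak1 reached 0.10 at day 7 and ran from -0.10 to 0.21 at day 9, and Stat5b ran from -0.16 to 0.053 at day 30. A random block for slide could not be fitted at day 4, and a block for scan day only at days 7 and 30. Dim signals limit Jak3 most.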

Other observations

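Of the other marker lists, 5 of 16 T cell, 2 of 10 NK cell and 3 of 11 neutrophil genes were called lower at 1 or more days, beside 25.9% of all genes, and 1 of 10 platelet genes was called higher, beside 22.4% of all genes. The T cell gene Cd2 was called lower at all 5 days, with changes from -2.02 to -1.21, and Cd8a at 2 days, from -1.22 to -0.63. Cd4 and Cd3e of the same list had means over the 5 days of 0.19 and -0.03 and were not called (named after their values were seen). Klrk1 and Klre1, receptors of NK cells, were called lower at 1 day each. Mmp9 and Ly6g of the neutrophil list were called lower at 2 days each, and Il1r2, the decoy receptor of IL-1, was called higher at 1 day. Ahsp, which stabilizes free alpha globin, was called higher at 3 days, and the red cell membrane gene Epb4.2 at 2 days. Among 10 platelet genes only Gp1ba was called, at 1.04 on day 30.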
